A study of Mus musculus with 2 samples.

Results

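The interferon response genes described here are 43 genes chosen by symbol, namely the receptors for type I and type II interferon, 7 interferon regulatory factors, 3 cytoplasmic RNA sensors and a set of interferon-induced effectors. All 43 symbols were found among the 25810 gene symbols in the files. They were measured by RNA-Seq in mammary epithelial cells (MECs) from inguinal glands on lactation day 3, in 1 library from wild-type (WT) mice and 1 library from *Igfbp7*-/- mice, which lack the insulin-like growth factor binding protein *Igfbp7* through deletion of its first coding exon. The deletion was made in embryonic stem cells and passed through the germline, so it was not limited to the mammary gland. The labels gave C57BL/6 as the genetic background of both samples, whereas the methods of the study described the knockout as made on CD1. Before RNA was extracted, both cell preparations were depleted with magnetic beads of cells carrying lineage markers. According to the methods these were CD45 on leukocytes, CD31 on endothelial cells and Ter119 on erythroid cells, while the labels list CD35 in place of CD31. With 1 library for each genotype there was no replicate check on any difference, the number of animals in each library was not found, and no test between the genotypes was possible.

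Interferons are secreted in response to viral and other foreign nucleic acids, which are recognised by Toll-like receptors in endosomes and by RNA and DNA sensors in the cytoplasm. Type I interferons signal through the receptor chains *Ifnar1* and *Ifnar2*, interferon gamma signals through *Ifngr1* and *Ifngr2*, and both act through Janus kinases. Type I signalling leads to a complex containing *Stat2* and *Irf9* that binds interferon-stimulated response elements, whereas interferon gamma acts through gamma-activated sites, and the induced genes encode proteins that block viral replication, present antigen or limit the signal itself. In the mammary gland, leukocytes, endothelial cells and the epithelium can all respond to interferon.

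The question asked of the promoters was whether the members share the binding letters of these factors. The choice of members used symbols and no sequence. Most were chosen as interferon-induced genes, however, so a share above that of all promoters can follow from the choice and is a description only. RefSeq promoters (table build GRCm38.p6), each spanning 250 bases before and 50 bases after an annotated start, were found for 36 of the 43 members, and all 46 promoters of these genes were located by exact match in NCBIM37 (mm9), the build named in the processing notes of the submitters. *Oas2*, *Parp9*, *Mx2*, *Dhx58*, *Mx1*, *Parp14* and *Usp18* had no entry. The core of the interferon-stimulated response element was searched as GAAANNGAAA on both strands with overlapping matches counted. It was present in 15 of the 46 promoters of the members (32.6%) and in 1131 of all 32851 promoters (3.44%). Of the promoters of members that were lower in the *Igfbp7*-/- library, 14 of 39 (35.9%) held a match, or 14 of 29 genes (48.3%). Of the promoters of the other members, 1 of 7 (14.3%) held a match, that of *Irf2*. These 7 belonged to the receptor genes, *Irf2*, *Irf3* and *Xaf1*, so the split also follows role, and it was not tested. The gamma-activated site, searched as TTCNNNGAA, which is its own reverse complement, was present in 13 of the 46 promoters of the members (28.3%) and in 2726 of all promoters (8.30%). For this motif, 10 of 39 promoters (25.6%) of members that were lower held a match, or 10 of 29 genes (34.5%). Of the promoters of the others, 3 of 7 (42.9%) held a match. A match describes letters in these windows and does not show binding.

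The printed sequences are the regions before the start of *Rsad2*, *Ifit3* and *Gbp2*, which had the lowest ratios of *Igfbp7*-/- to WT among the members with at least 10 RPM (reads divided by the mapped reads of the library in units of 1e6) and a response element match, and of *Isg15*, which held the most matches and was added after its values were seen. Each is written 5' to 3' on the strand of the gene, and capitals mark the matches to the response element core. The *Rsad2* sequence is chr12:27141318-27141567 on the minus strand, *Ifit3* is chr19:34657769-34658018 on the plus strand, and *Isg15* is chr4:155574928-155575177 on the minus strand. For *Gbp2* only 30 bases around the match are shown, chr3:142283558-142283587 on the plus strand. The reason is that an exon of *Gbp2* annotated in NCBIM37 starts within its window, at 142283566, before the match. The match thus lies before the RefSeq start but inside the gene as annotated in NCBIM37.
Rsad2: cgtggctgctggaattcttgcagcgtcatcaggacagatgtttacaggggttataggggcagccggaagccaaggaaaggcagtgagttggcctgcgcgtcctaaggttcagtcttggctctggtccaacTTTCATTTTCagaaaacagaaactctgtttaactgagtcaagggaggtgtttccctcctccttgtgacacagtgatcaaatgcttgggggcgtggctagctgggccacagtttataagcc
Ifit3: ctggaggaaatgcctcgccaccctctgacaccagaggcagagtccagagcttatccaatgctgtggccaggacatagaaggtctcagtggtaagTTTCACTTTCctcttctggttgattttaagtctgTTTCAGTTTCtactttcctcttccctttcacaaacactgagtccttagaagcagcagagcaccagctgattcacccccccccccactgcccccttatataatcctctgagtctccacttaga
Gbp2: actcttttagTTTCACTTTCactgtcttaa
Isg15: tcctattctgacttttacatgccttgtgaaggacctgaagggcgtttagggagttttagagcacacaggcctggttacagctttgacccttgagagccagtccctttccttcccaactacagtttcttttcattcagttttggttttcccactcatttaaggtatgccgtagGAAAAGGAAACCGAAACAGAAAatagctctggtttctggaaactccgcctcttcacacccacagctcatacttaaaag
Counted from the RefSeq start, the single match of *Rsad2* lay at bases -120 to -111 and that of *Gbp2* at -59 to -50, both on the reverse strand. *Ifit3* held matches starting at -156 and -122, and *Ifit1* held matches starting at -104 and -85. The 3 matches of *Isg15* overlapped and together covered bases -78 to -57. The promoter of *Irf3*, the member with the highest ratio, held 0 matches to either motif and is not printed, since exons of the neighbouring gene *Bcl2l12* lie in it.

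**Figure D1:**
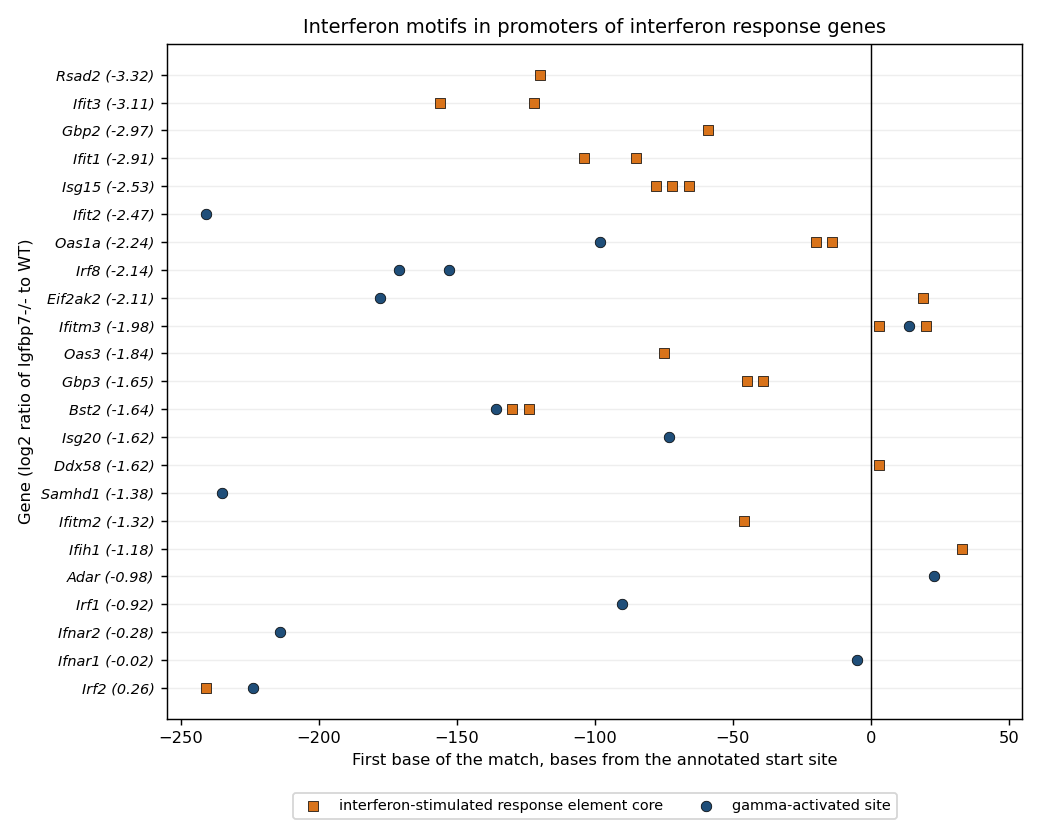
Positions of matches to the interferon-stimulated response element core (squares) and the gamma-activated site (circles) in the promoters of interferon response genes, in bases from the annotated start site (vertical line at 0), with genes ordered by their log2 ratio of *Igfbp7*-/- to WT in brackets. The 5 genes with the lowest ratios among those shown, *Rsad2* to *Isg15*, held response element matches and no gamma-activated site, and of the members that were not lower only *Irf2* held a response element match.

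Levels are given as RPM, and differences as the log2 ratio of *Igfbp7*-/- to WT after adding 0.1 RPM to each. A gene was called lower or higher at a ratio of at least 1.5 in that direction, among the 14026 genes that reached 1 RPM in WT, in *Igfbp7*-/- or in both. The totals behind the RPM were 34327854 reads in WT and 35016847 in *Igfbp7*-/-, of which 82.4% and 72.3% lay on listed genes, and 3 read pairs, the limit that a count of 0 allows, corresponded to 0.175 and 0.171 RPM. As the check of the labels, *Igfbp7* itself had 5224 and 37 reads in WT and *Igfbp7*-/-, a log2 ratio of -7.04, the lowest of all genes kept. Intervals are 95% exact intervals on read pairs and cover counting error only.

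Interferon response genes were broadly lower in the *Igfbp7*-/- library. All 43 members passed the minimum, and 35 of them (81.4%) were lower by at least 1.5 times, 0 were higher and 8 lay within 1.5 times. Of all genes kept, 23.0% were lower and 21.4% were higher. The median log2 ratio of the members was -1.64, against 0.035 over all genes kept, for which the quartiles were -0.52 and 0.51. Of the members 32 were lower by at least 2 times and 16 by at least 4 times, whereas 13.8% and 3.91% of all genes reached these sizes. The members took 240727 reads in WT and 70510 in *Igfbp7*-/-, or 0.701% and 0.201% of the mapped reads, and their summed RPM was 7013 and 2014, that is 3.48 times lower. *Rsad2* alone held 21.3% of the members' reads in WT and 7.40% in *Igfbp7*-/-, and without it the sums were 5519 and 1865 RPM.

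The reads behind these values were many for most members. The member with the fewest reads in WT had 213 and the one with the fewest in *Igfbp7*-/- had 124, and 42 members reached 10 RPM in one library or more. The interval of the ratio excluded equal levels for each of the 35 members that were lower. These members lay on 14 of the 15 chromosomes that carry members, a spread that follows from the choice of genes. A part of chromosomal position in the lower values was not tested. In bulk cells, fewer cells of a type and less RNA in each cell cannot be told apart. Scaling the counts to reads on listed genes raised the median of all genes by 0.19, to 0.22, and changed the share of calls that were lower from 51.8% to 37.9%, while the count of members lower stayed at 35.

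**Figure D2:**
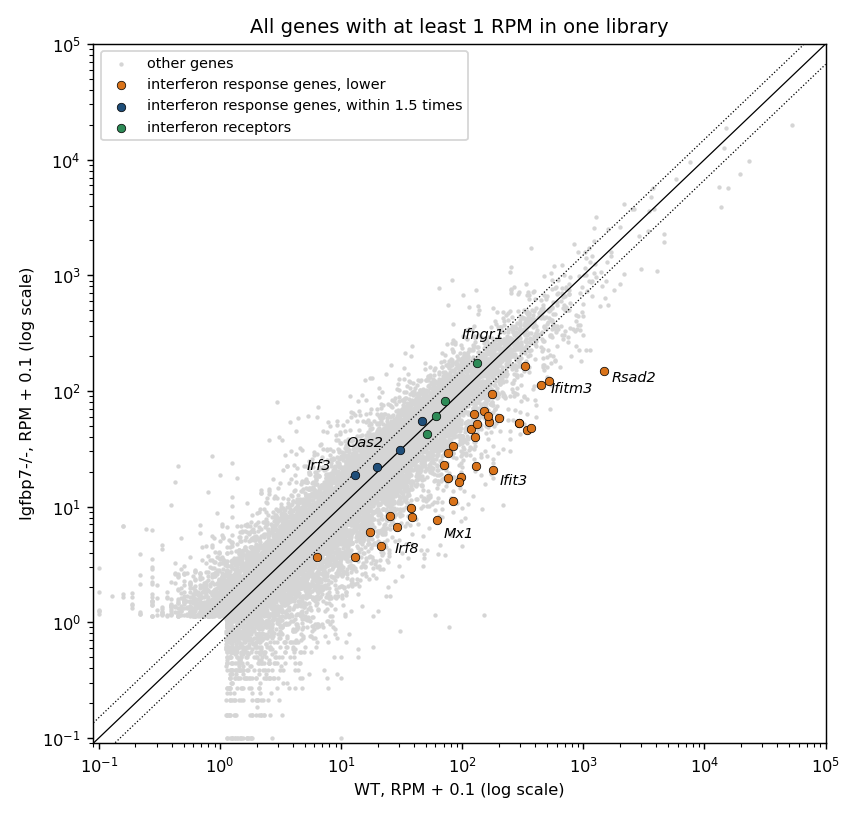
RPM of each gene in WT (x axis) and *Igfbp7*-/- (y axis) after adding 0.1, both on log scales, for the 14026 genes kept (grey), with interferon response genes that were lower (orange) or within 1.5 times (blue) and the interferon receptors (green). The solid line marks equal levels and the dotted lines 1.5 times, and the 35 orange points lie below the lower dotted line while all 8 others lie between the dotted lines.

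The receptors were not among the members that were lower. *Ifnar1*, the signalling chain shared by all type I interferons, was at 60.8 RPM in WT and 60.1 RPM in *Igfbp7*-/-, a log2 ratio of -0.02 (interval -0.14 to 0.11). Its partner *Ifnar2* was at 51.0 and 42.0 RPM, a log2 ratio of -0.28 (-0.42 to -0.14). *Ifngr1*, the ligand-binding chain of the interferon gamma receptor, was at 132.2 and 175.3 RPM, a log2 ratio of 0.41 (0.33 to 0.49), and the accessory chain *Ifngr2* was at 72.3 and 81.3 RPM, a log2 ratio of 0.17 (0.06 to 0.28). None of the 4 receptor genes reached 1.5 times in either direction, and their summed level was 316.4 RPM in WT and 358.7 RPM in *Igfbp7*-/-. *Ifngr1* passed 1.5 times only when counts were scaled to reads on listed genes, with a log2 ratio of 0.59. Per length, *Ifngr1* was the most abundant receptor gene in both libraries, with 63.0 and 83.5 RPKM (RPM divided by the length of the gene in kilobases), and *Ifnar1* the least, with 8.65 and 8.55 RPKM. The genes *Ifnar2*, *Ifnar1* and *Ifngr2* lie near each other on chromosome 16. *Ifnar2* overlaps *Il10rb* on the same strand and shared 14.2% of its transcript 35-mers with it, so part of its count may belong to *Il10rb*.

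The interferon regulatory factors, transcription factors that switch on interferon and interferon-induced genes, did not move alike. *Irf7*, the factor that amplifies type I interferon production and is itself induced by interferon, was at 97.4 RPM in WT and 17.8 RPM in *Igfbp7*-/-, 5.43 times lower (log2 ratio -2.44, interval -2.63 to -2.27). *Irf8*, which is expressed mainly in myeloid and B cells, was at 29.1 and 6.54 RPM, 4.39 times lower (-2.14, -2.46 to -1.86). *Irf5*, an inducer of inflammatory cytokines in myeloid cells, was at 17.0 and 5.94 RPM (-1.50, -1.86 to -1.19). These 3 factors had the lowest ratios in the group. *Irf9*, the DNA-binding subunit of the complex with *Stat2*, was at 117.7 and 46.9 RPM (-1.32, -1.45 to -1.21). *Irf1*, an early interferon gamma target, was at 175.8 and 93.0 RPM (-0.92, -1.01 to -0.83). The remaining factors lay within 1.5 times and had positive ratios. *Irf2*, an antagonist of *Irf1*, was at 46.1 and 55.2 RPM, a log2 ratio of 0.26 (0.12 to 0.40). *Irf3*, which is present in resting cells and is activated by phosphorylation, was at 12.8 and 18.7 RPM, a log2 ratio of 0.54 (0.29 to 0.80), the highest of all members and the nearest to 1.5 times of those not called. It passed 1.5 times when counts were scaled to reads on listed genes (0.73) or when the 20 genes with the most reads were left out of the scaling (0.59). *Irf3*, *Irf5* and *Irf7* each overlap a gene on the opposite strand (*Bcl2l12*, *Tnpo3* and *Phrf1*) and *Irf9* overlaps *Rnf31* on the same strand, and whether the strand kept by the library protocol was used in counting was not stated.

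All 3 cytoplasmic RNA sensors were lower. *Ddx58*, which encodes RIG-I, a sensor of viral RNA ends, was at 166.6 RPM in WT and 54.2 RPM in *Igfbp7*-/- (log2 ratio -1.62, interval -1.73 to -1.51). *Ifih1*, which encodes MDA5, a sensor of long double-stranded RNA, was at 151.4 and 66.9 RPM (-1.18, -1.28 to -1.08). *Dhx58*, which encodes LGP2, a related helicase that modulates both sensors, was at 21.2 and 4.43 RPM, 4.71 times lower (-2.23, -2.63 to -1.90). *Dhx58* thus had the lowest ratio of the sensors and *Ifih1* the highest.

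The effectors and the RNA sensors together made up 32 of the members, with a median log2 ratio of -1.89. Of these, 30 were lower and 2, *Oas2* and *Xaf1*, lay within 1.5 times. The lowest ratio belonged to *Rsad2*, which encodes viperin, an enzyme that makes a chain-terminating nucleotide. *Rsad2* had 51280 WT reads and 5221 *Igfbp7*-/- reads, that is 1494 and 149.1 RPM, 10 times lower (log2 ratio -3.32, interval -3.38 to -3.27). It had the most reads of the members in WT, fewer reads than *Ifngr1* and *Trim25* in *Igfbp7*-/-, and a ratio that ranked 104 from the lowest among all genes kept. The other membrane-associated factor, *Bst2*, which encodes tetherin and holds budding virus at the cell surface, was at 25.4 and 8.11 RPM (-1.64, -1.93 to -1.37).

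The genes of the IFIT proteins were lower as a group, from a summed 817.0 RPM in WT to 119.3 RPM in *Igfbp7*-/-, 6.85 times. *Ifit1*, whose protein binds viral RNA lacking host cap marks, was at 344.7 and 45.8 RPM, 7.52 times lower (log2 ratio -2.91, interval -3.02 to -2.81). *Ifit2* was at 294.4 and 52.9 RPM, 5.55 times lower (-2.47, -2.58 to -2.37). *Ifit3* was at 177.9 and 20.6 RPM, 8.62 times lower (-3.11, -3.27 to -2.96). The *Ifit3* values are uncertain, because 60.3% of its transcript 35-mers also occur in *I830012O16Rik* and how reads that fit more than 1 place were counted was not stated. That gene was at 123.0 and 12.2 RPM, a log2 ratio of -3.33, and reads that lie wholly in shared stretches cannot be assigned to either gene here.

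The IFITM proteins, small membrane proteins that block the fusion of viruses with endosomes, differed in size of change. *Ifitm3* was at 445.3 RPM in WT and 113.1 RPM in *Igfbp7*-/-, 3.93 times lower (log2 ratio -1.98, interval -2.05 to -1.91). *Ifitm2* was at 83.7 and 33.6 RPM (-1.32, -1.46 to -1.18). *Ifitm1* was at 6.20 and 3.57 RPM (-0.78, -1.27 to -0.33), the member nearest to 1.5 times among those called lower and the 1 that did not reach 10 RPM. *Ifitm2* and *Ifitm3* shared 19.9% and 14.0% of their 35-mers with other genes. Per length, *Ifitm3* had the highest level of all members in both libraries, 687.1 RPKM in WT and 174.6 RPKM in *Igfbp7*-/-.

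The ISG15 system attaches the ubiquitin-like protein *Isg15* to other proteins. *Isg15* was at 129.6 RPM in WT and 22.4 RPM in *Igfbp7*-/-, 5.76 times lower (log2 ratio -2.53, interval -2.69 to -2.38). *Usp18*, which removes *Isg15* from proteins and damps signalling at *Ifnar2*, was at 83.6 and 11.1 RPM, 7.51 times lower (-2.91, -3.14 to -2.70). *Trim25*, a ubiquitin ligase that activates RIG-I, was at 327.4 and 163.5 RPM (-1.0, -1.07 to -0.94). *Usp18* and *Isg15* were thus lower by more than 5 times and *Trim25* by about 2 times.

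The oligoadenylate synthetase family, whose catalytic members make the second messenger that activates RNase L, held a gene that stood apart, *Oas2*. *Oasl2* was at 294.2 RPM in WT and 52.4 RPM in *Igfbp7*-/-, 5.60 times lower (log2 ratio -2.49, interval -2.59 to -2.39). *Oasl1*, which restrains translation of *Irf7*, was at 200.3 and 57.7 RPM (-1.79, -1.90 to -1.69). *Oas1a* was at 38.4 and 8.05 RPM, 4.72 times lower (-2.24, -2.52 to -1.99), but 62.5% of its 35-mers were shared with *Oas1g*, which was at 23.1 and 4.60 RPM. The neighbours *Oas2* and *Oas3* had unlike ratios. *Oas3* was at 12.9 and 3.54 RPM, 3.58 times lower (-1.84, -2.30 to -1.46). *Oas2* was at 19.8 and 21.7 RPM, a log2 ratio of 0.13 with an interval of -0.09 to 0.34. They lie in the same orientation on the minus strand of chromosome 5, *Oas2* at 121180342 to 121199862 and *Oas3* at 121203107 to 121227670 in NCBIM37, 3244 bp apart. No 35-mer of *Oas2* was shared with another gene, and their intervals did not overlap. *Igfbp7* also lies on chromosome 5, at 77778265 to 77837070.

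All 4 interferon-induced GTPases were lower, with a median log2 ratio of -2.75 and summed levels of 654.5 RPM in WT and 111.3 RPM in *Igfbp7*-/-. *Mx1*, a dynamin-like protein that blocks influenza virus in the nucleus, was at 61.3 and 7.60 RPM, 7.98 times lower (-3.0, interval -3.28 to -2.75). Its paralogue *Mx2* was at 94.5 and 16.2 RPM, 5.79 times lower (-2.53, -2.73 to -2.36), and shared 10.5% of its 35-mers with *Mx1*. The guanylate-binding proteins attack membranes around intracellular pathogens. *Gbp2* was at 372.6 and 47.4 RPM, 7.84 times lower (-2.97, -3.08 to -2.87). *Gbp3* was at 126.1 and 40.0 RPM (-1.65, -1.78 to -1.53). Of the 4, *Gbp3* had the smallest difference.

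The enzymes that act on RNA and nucleotides were lower by smaller factors, with a median log2 ratio of -1.50. *Eif2ak2*, which encodes PKR, a kinase that halts translation on sensing double-stranded RNA, was at 75.6 RPM in WT and 17.4 RPM in *Igfbp7*-/-, 4.33 times lower (-2.11, interval -2.31 to -1.94). *Isg20*, an RNA exonuclease, was at 70.4 and 22.8 RPM (-1.62, -1.79 to -1.46). *Samhd1*, which breaks down deoxynucleotides, was at 75.5 and 28.9 RPM (-1.38, -1.54 to -1.24). *Adar*, which edits adenosine to inosine in double-stranded RNA, was at 125.8 and 63.7 RPM (-0.98, -1.09 to -0.88). PKR had the lowest ratio of these enzymes and *Adar* the highest.

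*Parp14*, an ADP-ribosyltransferase, was at 519.3 RPM in WT and 122.1 RPM in *Igfbp7*-/-, 4.25 times lower (log2 ratio -2.09, interval -2.16 to -2.02). *Parp9* was at 131.1 and 51.6 RPM (-1.34, -1.46 to -1.23), and its binding partner *Dtx3l*, a ubiquitin ligase, was at 163.2 and 60.1 RPM (-1.44, -1.54 to -1.34). *Parp9* and *Dtx3l* overlap by 682 bp on opposite strands of chromosome 16, so reads in the shared stretch cannot be assigned to either without strand. The last members were a nuclear body protein and an apoptosis factor with unlike ratios. *Sp100*, a component of nuclear bodies, was at 37.4 and 9.68 RPM, 3.84 times lower (-1.94, -2.20 to -1.70). *Xaf1*, an antagonist of apoptosis inhibitors, was at 30.6 and 30.5 RPM, a log2 ratio of -0.00 with an interval of -0.18 to 0.17.

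**Figure D3:**
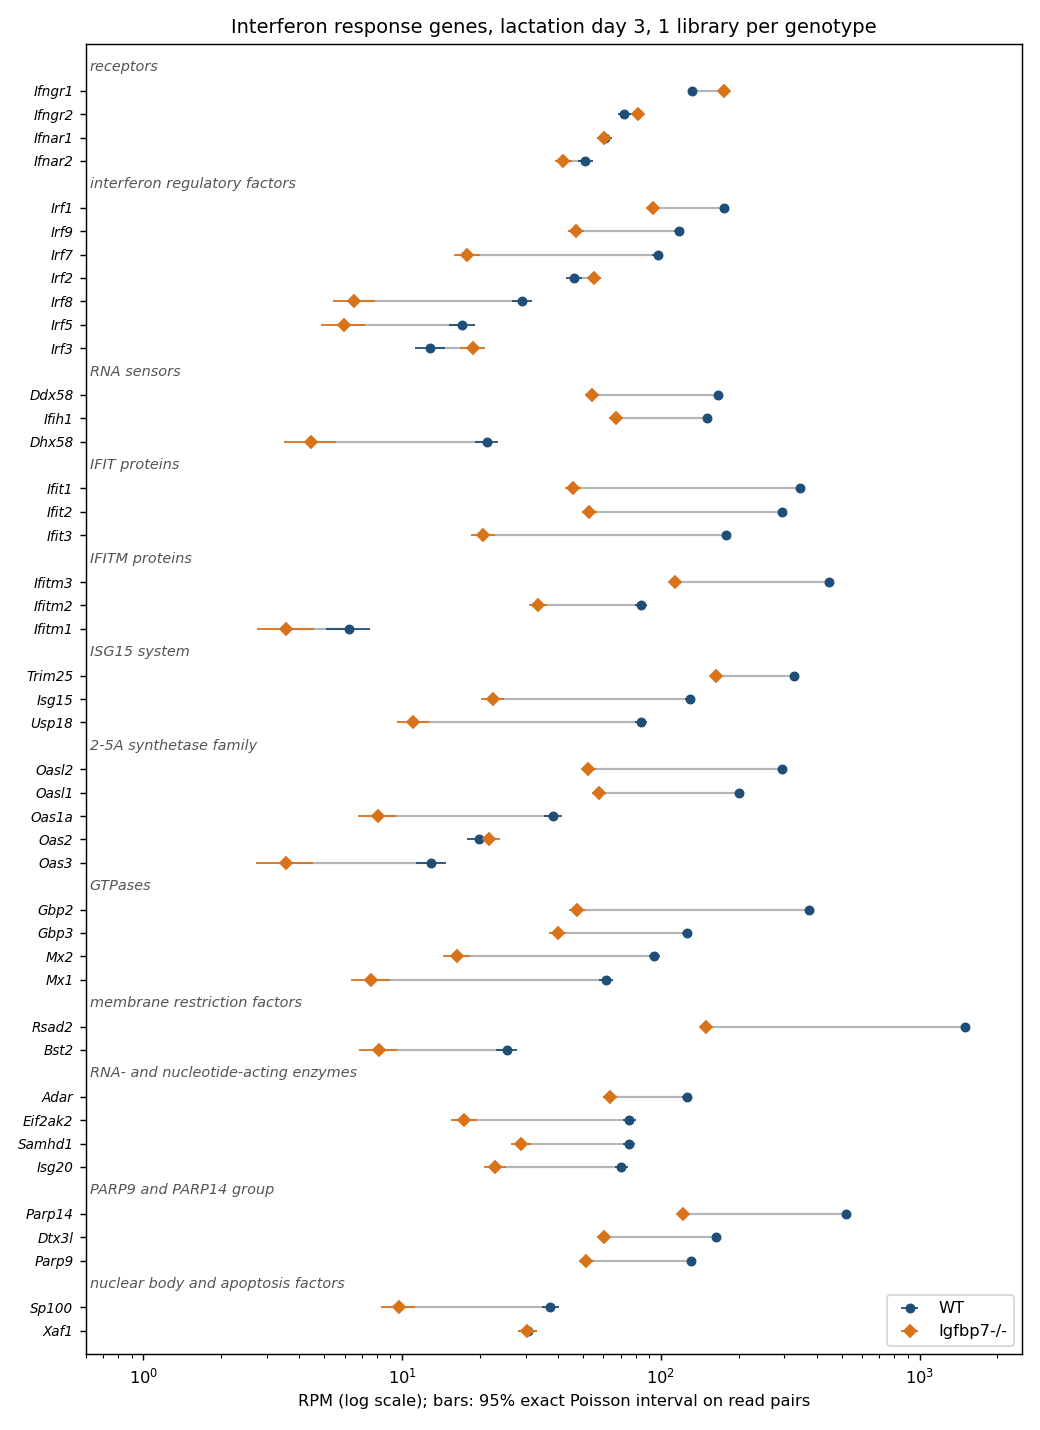
RPM (log scale) of the 43 interferon response genes in WT (blue circles) and *Igfbp7*-/- (orange diamonds), grouped by role, with 95% exact Poisson intervals on read pairs as bars, which cover counting error only. The pairs of points lie close together for the receptors, *Irf2*, *Irf3*, *Oas2* and *Xaf1*, while the orange point lies to the left for the other 35 genes, from 1494 to 149.1 RPM for *Rsad2*.

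The genes that were not lower in *Igfbp7*-/- thus came to 8, the 4 receptor genes, *Irf2*, *Irf3*, *Oas2* and *Xaf1*, of which 5 had ratios above 0. Among them *Irf3* (0.54) lay just short of 1.5 times higher and *Ifnar2* (-0.28) was the nearest to 1.5 times lower, and no member lay between *Ifnar2* and *Ifitm1* (-0.78). The order of members by level per length differed between the libraries. In WT the 6 members with the highest RPKM were *Ifitm3*, *Rsad2* (394.7), *Isg15* (171.4), *Gbp2* (150.8), *Ifit1* (130.7) and *Ifitm2* (129.6). In *Igfbp7*-/- they were *Ifitm3*, *Ifngr1*, *Ifitm2* (51.9), *Irf1* (43.2), *Rsad2* (39.4) and *Ifngr2* (39.3). Receptor genes and *Irf1* thus took places that *Isg15*, *Gbp2* and *Ifit1* held in WT.

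Apart from *Ifnb1*, the ligands themselves were sparse. Of 21 interferon symbols searched, 19 were listed and 2 passed 1 RPM, *Ifnb1* and *Ifng*. *Ifnb1*, the gene of interferon beta, had 1639 WT reads and 410 *Igfbp7*-/- reads, or 47.7 and 11.7 RPM (log2 ratio -2.02, interval -2.26 to -1.81). *Ifng* had 46 and 24 reads, or 1.34 and 0.685 RPM, a log2 ratio of -0.87 whose interval, -2.11 to 0.10, included equal levels. Equal levels were thus outside the counting interval for *Ifnb1* and inside it for *Ifng*. Reads were absent for 11 interferon genes in WT and 12 in *Igfbp7*-/-, among them 9 and 11 of the listed alpha genes. At this depth 0 read pairs allow up to 0.175 and 0.171 RPM by counting alone, and how reads that fit several similar alpha genes were counted was not stated.

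A further list of 98 interferon pathway genes, none of them a member, was mostly lower as well. Like the members, it was chosen with earlier results of these data known, so it is not independent support. Of the 80 that passed the minimum, 62 were lower, 3 were higher and 15 lay within 1.5 times, with a median log2 ratio of -1.75, read against the same 23.0% and 21.4% of all genes. In the signalling group, with 10 genes kept, 3 were lower and 2 were higher, shares near those of all genes. *Stat2*, a signal transducer of type I interferon, was at 146.8 and 62.0 RPM in WT and *Igfbp7*-/- (-1.24). The kinase *Jak1* was at 360.8 and 283.7 RPM (-0.35). *Tyk2*, the kinase bound to *Ifnar1*, was at 11.6 and 23.5 RPM (1.01), and *Il28ra*, a chain of the receptor for type III interferon, was at 17.4 and 42.0 RPM (1.27). *Stat2* was thus lower, while *Tyk2* and *Il28ra* were higher.

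Of the 12 nucleic acid sensing genes kept, 7 were lower and 0 were higher. *Tlr9*, an endosomal receptor for DNA, was at 18.2 RPM in WT and 2.46 RPM in *Igfbp7*-/- (-2.84). *Tlr7*, an endosomal receptor for single-stranded RNA, was at 18.6 and 4.74 RPM (-1.95), and *Tmem173*, which encodes the adaptor STING, was at 67.1 and 19.2 RPM (-1.80). Of 37 further induced genes, 32 were lower and 0 were higher, with a median of -1.66. *Cmpk2*, a mitochondrial nucleotide kinase gene, was at 178.2 and 23.8 RPM (-2.90). *Tor3a* was at 179.7 and 25.7 RPM (-2.80), and *Ifi44* was at 43.0 and 6.94 RPM (-2.61).

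Genes associated with interferon gamma had the lowest median of these groups, -2.78, with 18 of 19 kept genes lower and summed levels of 2552 RPM in WT and 381.2 RPM in *Igfbp7*-/-. *Cxcl9*, a chemokine that attracts T cells, was at 215.9 and 10.2 RPM (-4.39). The GTPase genes *Tgtp1* (105.7 and 7.91 RPM, -3.72) and *Tgtp2* (98.3 and 7.34 RPM, -3.73) shared 87.4% and 93.7% of their 35-mers with other genes, mostly with each other, so their split is uncertain. The exception was *Gbp1*, which was at 10.7 RPM in WT and 44.5 RPM in *Igfbp7*-/- (2.05), 4.13 times higher, although *Gbp2* and *Gbp3* were lower.

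**Figure D4:**
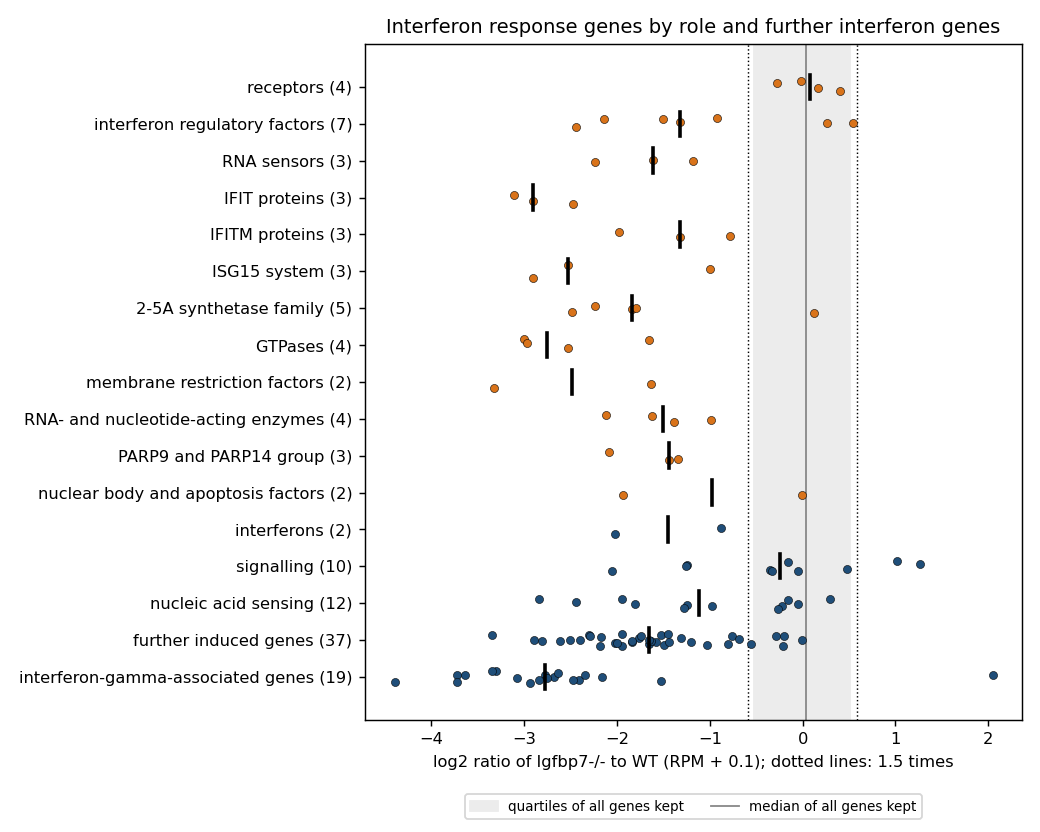
Log2 ratio of *Igfbp7*-/- to WT for each interferon response gene by role (orange) and for further interferon genes by list (blue), with the number of genes in brackets, black bars for medians, a grey band for the quartiles of all 14026 genes kept and dotted lines at 1.5 times. The receptors have a median of 0.08 inside the grey band, the IFIT proteins one of -2.91 and the interferon gamma-associated genes one of -2.78, with *Gbp1* alone at the far right.

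Markers of several cell types also differed between the libraries, and their part in the lower levels of the interferon response genes was not tested. The counts below are read against 23.0% lower and 21.4% higher among all genes kept, and each list is short. All 6 general leukocyte markers were lower, and their summed levels in WT and *Igfbp7*-/- were 135.1 and 43.6 RPM. *Ptprc*, which encodes the CD45 used for depletion, was at 43.5 and 18.1 RPM. Macrophage markers were lower in 7 of 8 cases, with sums of 195.8 and 71.4 RPM. All 7 dendritic and Langerhans cell markers kept, of 8 listed, were lower, with sums of 791.2 and 91.2 RPM and a median log2 ratio of -3.82, below that of the members. Most of these sums was *Cd74* (526.6 and 69.7 RPM). *Cd74*, *H2-Aa*, *H2-Ab1* and *H2-Eb1* serve antigen presentation, which interferon can induce, so this list is not separate from the interferon response. Of the other markers kept, *Cd207* had a log2 ratio of -5.17, *Itgax* -2.22 and *Zbtb46* -0.97. Leukocyte transcripts were thus present in both depleted preparations, at lower levels in *Igfbp7*-/-. All 4 B cell markers were lower (9.09 and 1.0 RPM), as were 3 of 7 T and NK cell markers kept of 10 (59.5 and 18.7 RPM, or 21.0 and 10.2 RPM without *Gzmb*, median log2 ratio -0.40) and 2 of 3 neutrophil markers kept of 5 (37.6 and 30.7 RPM). None of the 3 plasmacytoid dendritic cell markers passed 1 RPM (1.86 and 0.485 RPM summed), and *Siglech* had 0 reads in *Igfbp7*-/-. *Ly6g* of the neutrophil list had 0 reads in WT.

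Outside the leukocytes, 5 of 6 endothelial markers were lower, from a summed 1129 RPM in WT to 374.8 RPM in *Igfbp7*-/-, and so were 5 of 6 basal epithelial markers (2942 and 957.9 RPM), 4 of 6 fibroblast markers (9060 and 4582 RPM) and 3 of 4 adipocyte markers kept of 5 (567.4 and 192.8 RPM), with 1 higher. Of the 7 luminal and secretory markers, 3 were lower and 2 were higher, with sums of 68214 and 26565 RPM that were mostly milk protein transcripts. Of all genes kept, 23.0% were lower and 21.4% were higher, and lists this short can differ from those shares by a few genes. *Krt8* and *Krt18*, keratins of luminal cells, were at 268.1 and 250.4 RPM in WT and at 789.0 and 1174 RPM in *Igfbp7*-/-. The 3 erythroid markers kept, of 4 listed, lay within 1.5 times (1047 and 1230 RPM). Keratin and milk protein transcripts of the epithelium were thus abundant in both preparations, beside transcripts of stroma and of the lineages to be removed.

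**Figure D5:**
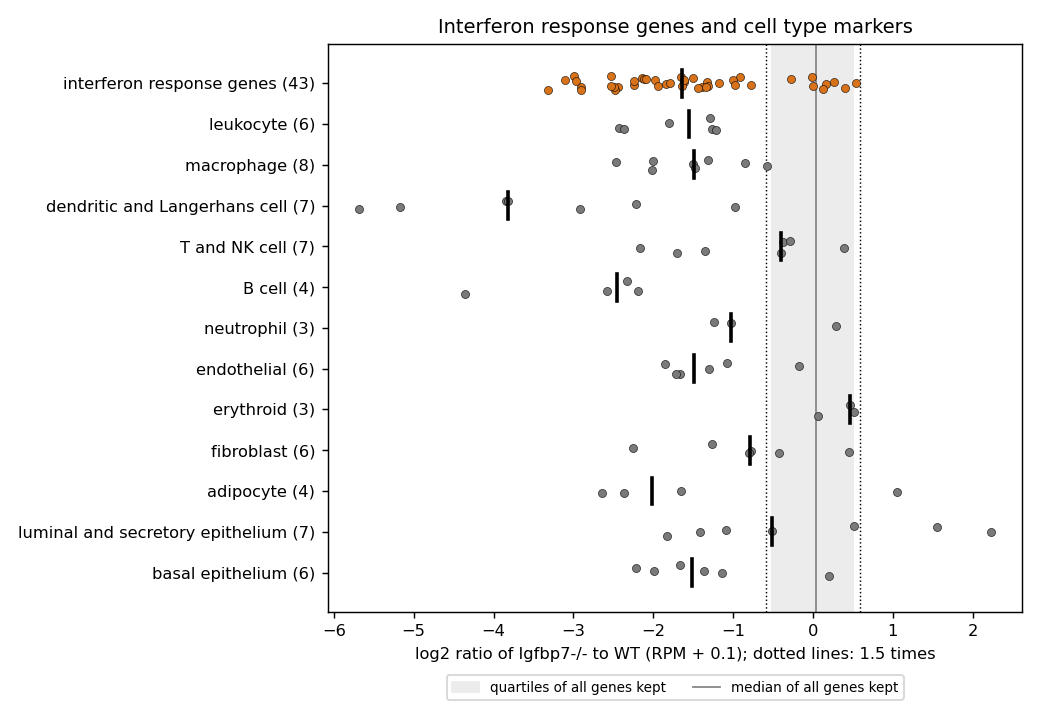
Log2 ratio of *Igfbp7*-/- to WT for the 43 interferon response genes (orange) and for marker genes of 12 cell type lists with a gene kept (grey), with the number of genes kept in brackets, black bars for medians, the grey band for the quartiles of all genes kept and dotted lines at 1.5 times. Leukocyte (-1.55), basal epithelial (-1.51), macrophage (-1.49) and endothelial (-1.48) markers had medians near that of the interferon response genes (-1.64). Dendritic and Langerhans cell (-3.82), B cell (-2.45) and adipocyte (-2.01) markers had lower medians. Neutrophil (-1.03), fibroblast (-0.79), luminal and secretory (-0.52), T and NK cell (-0.40) and erythroid (0.47) markers had higher medians.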

How the data were processed

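RNA-Seq of Lin- MECs gave 1 library for WT and 1 for *Igfbp7*-/-. The authors mapped SOLiD paired-end reads, and the processing notes of the submitters name Bowtie 0.12.3, SAMtools 0.1.15 and the build mm9, whereas the methods of the study name a human build although the files list mouse genes. The library protocol kept strand, but the gene annotation, any use of strand in counting and the treatment of reads that map to several places were not given in the sources used here. The authors deposited a read count for each gene, the RPM, which is that count divided by a total of mapped reads, and the RPKM, which divides the RPM by a gene length, and RPKM was used only to compare levels between genes. The 50 rows without a symbol, with 0.0495% of reads in WT and 0.0670% in *Igfbp7*-/-, were left out and blank counts were read as 0.

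Ratios were taken with a pseudocount of 0.1 RPM for genes that reached 1 RPM in either library. Clopper-Pearson intervals at 95% were computed on counts divided by 2, since 75.8% and 74.1% of counts from 1 to 20 were even, and leave out the pseudocount. Shares of 35-mers were counted over protein-coding transcripts of NCBIM37. All 43 members were named, together with the interferon genes, *Jak1*, *Tyk2*, *Stat2* and, in each further list, the 3 genes with at least 10 RPM that moved furthest, except for a gene that is not reported here. *Oas1g*, *I830012O16Rik* and the exception *Gbp1* were named after their values were seen. The members and gene lists were chosen with earlier results of these data known. Alternatives covered pseudocounts, minimum levels, thresholds and scalings, among them edgeR 4.0.16 TMM factors and DESeq2 1.42.0 size factors, which were used for scaling only. Python 3.11.15, numpy 2.4.6, scipy 1.17.1, pandas 2.3.3, matplotlib 3.10.9 and R 4.3.3 were used, and the scripts were tested on simulated data.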

Additional observations from a re-analysis of the deposited data

How the results depend on the processing

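Each genotype had 1 library, so leaving out a replicate was not possible, and the intervals do not cover differences between animals. No paired analysis was possible because each genotype had 1 library. The count of members lower was 35 under every alternative except a minimum of 10 RPM, with 34 of 42, and a ratio of at least 2, with 32. Their median log2 ratio ranged from -1.67 to -1.45. The count of members higher, 0 as reported, was 2 with counts scaled to reads on listed genes (*Ifngr1* and *Irf3*) and 1 without the 20 genes with the most reads (*Irf3*). Over all genes, the counts lower and higher were 5279 and 4741 with no minimum, 1672 and 1696 with a minimum of 10 RPM, and 1936 and 1352 with a ratio of at least 2, since more or fewer genes then enter or pass. Further interferon genes lower numbered between 49 and 65 and those higher 3 or 4. The ratios of 31 members moved beyond their counting intervals when counts were scaled to reads on listed genes, which shifts every gene alike, so this says little of single members.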
